A study of Mus musculus with 6 samples.

Results

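Genes of bone morphogenetic protein (BMP) and transforming growth factor beta (TGF-beta) signalling in kidney endothelium were followed across 6 mouse libraries. The 10 genes were taken by symbol from the 55487 genes of the deposited matrix, and all 10 were present and passed the filter of a mean of at least 1 FPKM. FPKM is a fragment count divided by gene length and library size, so levels of different genes can be compared on it. By role, they were the ligand gene Tgfb2, the receptor genes Eng, Acvrl1, Bmpr2 and Tgfbr2, the inhibitory Smad genes Smad6 and Smad7, and the target genes Id1, Id2 and Id3.

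The I-PpoI group was 3 mice carrying VE-cadherin Cre and a ROSA26-STOP-I-PpoI allele; the genotype labels of mice 2 and 3 read ROSA27 and ROSA28 in its place. I-PpoI is a homing endonuclease that cuts DNA, the STOP cassette is removed by Cre, and VE-cadherin (Cdh5) drives Cre in endothelium. Littermates of wild type (3 mice) served as controls, and no group with Cre alone was among the 6 libraries. Both groups were switched to a high-fat diet (60% of energy from fat) at 8 weeks of age and stayed on it for 4 weeks. Endothelial cells were taken from whole-kidney digests on magnetic beads coated with antibody to CD31, the product of Pecam1.

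In this pathway, dimeric ligands bring together type I and type II receptor kinases, which phosphorylate Smad proteins that enter the nucleus with Smad4. In endothelium, BMP9 and BMP10 from the blood bind ALK1 (encoded by Acvrl1) and BMPR2 with endoglin (Eng) as co-receptor, and Id1, Id2, Id3, Smad6 and Smad7 are well-known transcriptional targets. TGF-beta ligands such as TGF-beta 2 bind TGFBR2 instead. Loss-of-function mutations of ENG and ALK1 cause hereditary haemorrhagic telangiectasia, and those of BMPR2 cause heritable pulmonary arterial hypertension.

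The libraries differed in depth, strand and cell content. Fragments recovered from FPKM came to 14081222 to 16954480 per control library, while the I-PpoI libraries held 1590957, 834149 and 13324303 for mice 1, 2 and 3. In I-PpoI mice 1 and 2, 68.2% and 70.6% of mitochondrial fragments lay on minus-strand genes, against 0.0473 to 0.0821% in the other 4 libraries. Mitochondrial genes took 8.83 to 18.3% of fragments in controls and 6.42%, 38.2% and 48.2% in I-PpoI mice 1, 2 and 3. The defining markers Cdh5 and Pecam1 were present throughout, Cdh5 at 266 to 328 FPKM in controls and 65.0 to 199 FPKM in I-PpoI. Of 18 endothelial markers, 18 were detected, and their sum was 2990 to 3341 FPKM in controls and 796 to 1812 FPKM in I-PpoI. The summed level of 10 proximal tubule markers was 256 to 453 FPKM in controls and 183, 844 and 1157 FPKM in I-PpoI mice 1, 2 and 3. Sums of distal (209.9 to 269.8 against 119 to 163 FPKM), podocyte (613 to 1238 against 131 to 388), mural (768 to 1082 against 469 to 494) and lymphocyte markers (26.999 to 49.5 against 7.10 to 15.9) were below every control in each I-PpoI library. Sums of fibroblast (7.21 to 18.4 against 6.43 to 15.6) and macrophage markers (17.9 to 176 against 74.8 to 198) overlapped. All these sums are FPKM as deposited, on which 45.1% of all genes tested were below every control in each I-PpoI library. After the median-of-ratios scaling used below, the median log2 fold change was 0.07 for mural markers. It stayed below 0 for distal (-0.46), podocyte (-0.58) and lymphocyte markers (-1.03). It was above 0 for proximal tubule (1.44), macrophage (1.29) and fibroblast markers (0.80). For endothelial markers the median was -1.50 as deposited and -0.69 after scaling. The Y-linked gene Ddx3y had 959 to 1672 fragments in controls and 20, 0 and 0 in I-PpoI mice 1, 2 and 3, while Xist had 70 and 4739 in I-PpoI mice 2 and 3 and at most 4 elsewhere. Lrp2, a defining proximal tubule gene, was at 2.33 to 3.65 FPKM in controls and 0.784, 14.3 and 66.5 FPKM in I-PpoI mice 1, 2 and 3. The part of these shifts in the results was not tested. Sex and group cannot be told apart in mice 2 and 3. In bulk samples, fewer endothelial cells and less RNA per endothelial cell cannot be told apart either.

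The comparison asked whether these genes differed between I-PpoI and control endothelium. As deposited, all 10 had lower group means in I-PpoI (log2 fold change below 0 in 71.6% of all genes tested) and 6 were lower in every I-PpoI library than in every control: Tgfb2, Acvrl1, Bmpr2, Tgfbr2, Id2 and Id3. The same was true of 45.1% of the 14962 genes tested, while 2.24% were higher in every I-PpoI library, and 0 members were. The median log2 fold change, on the log2(FPKM + 1) scale, was -1.13 over the members and -0.65 over all genes tested. No member passed limma's adjusted p of 0.05, and neither did any other gene (0 of 14962, 0%). Unadjusted p was under 0.05 for 6 members, all lower, and for 5503 genes. Of these genes 4857 were lower, which is 32.5% of all genes tested. Median-of-ratios scaling moved the median of all genes to -0.01. A median near 0 follows from how the factors are made, and strand and cell content still differ between the libraries. Tgfb2 and Acvrl1 were then still lower in every I-PpoI library, as were 10.7% of all genes tested. The factors came from all genes above 0 in every library, at 0.8591 and 0.6035 for I-PpoI mice 1 and 2. From nuclear protein-coding genes clear of near genes on the other strand, they were 0.697 and 0.467. Control factors were 1.27 to 1.43 from all genes and 1.43 to 1.60 from these. I-PpoI mouse 3 had 0.825 and 0.919 in the same order. Levels are divided by the factor. With the second set, I-PpoI mouse 1 lies above control mouse 2 for Tgfb2 and above every control for Acvrl1. Neither gene then stays apart, so their separation after scaling holds only with factors from all genes. The member median after this all-gene scaling was -0.32, with 8 members below 0 (50.7% of all genes), 2 above and 0 past the threshold. Unadjusted p was under 0.05 for 1 member (Tgfb2, lower) and for 1397 genes. Of these genes 549 were lower, which is 3.67% of all genes tested. Limma-voom on recovered fragments also called 0 members and 0 genes. At unadjusted p under 0.05 it had 1 member, lower, and 535 genes. Of these genes 182 were lower, which is 1.22% of all genes tested. A further fit kept only genes clear of near genes on the other strand, with the second set of factors. Its 6 members had a median of -0.04, with 3 below 0 and 3 above. The median over all 3654 genes of that fit was -0.03.

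**Figure D1:**
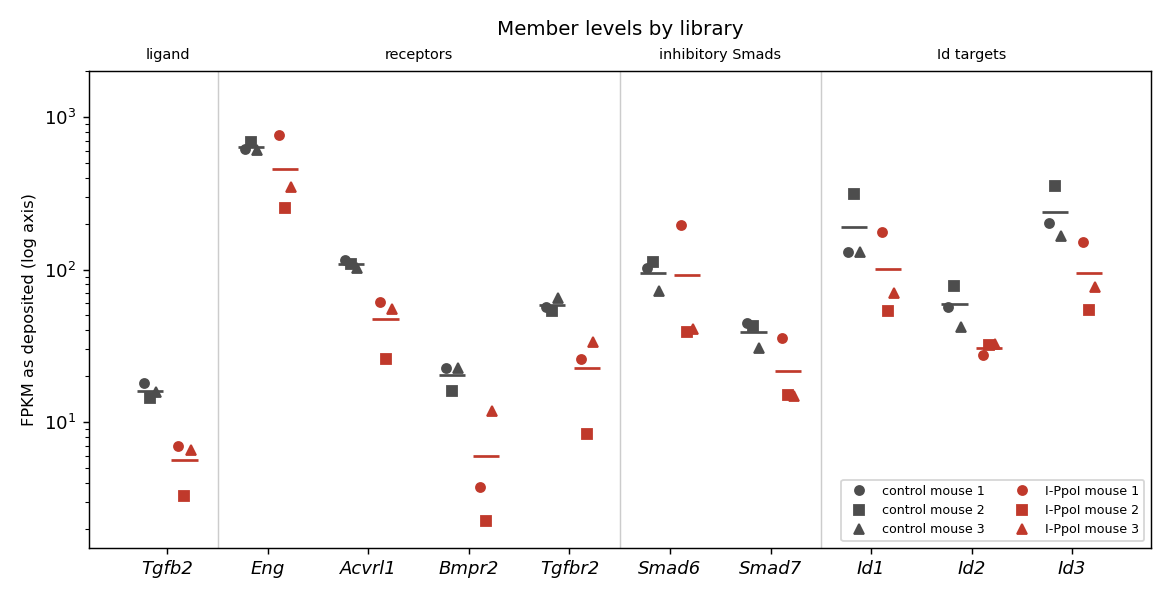
FPKM as deposited (log axis) of the 10 members in each of the 3 control (grey) and 3 I-PpoI (red) libraries, with the marker shape giving the mouse number and bars the group means. Eng stood highest and Tgfb2 lowest in controls, and the I-PpoI points of Tgfb2, Acvrl1, Bmpr2, Tgfbr2, Id2 and Id3 all lay under the control points.

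Among controls, Eng was the most abundant member at 639.6 ± 42.8 FPKM (SD, n = 3), above every control value of the next gene. Id3 (240.03 ± 99.2 FPKM) and Id1 (191 ± 106 FPKM) followed, with ranges that overlapped. Acvrl1 (109 ± 6.97 FPKM) and Smad6 (95.7 ± 20.8 FPKM) overlapped each other, as did Smad6 and Id2 (59.2 ± 17.9 FPKM), and Id2 and Tgfbr2 (58.3 ± 5.78 FPKM). Smad7 (39.2 ± 7.64 FPKM) lay clear of Tgfbr2 above it and of Bmpr2 (20.4 ± 3.81 FPKM) below it. Tgfb2 (16.1 ± 1.78 FPKM) overlapped Bmpr2.

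Tgfb2 encodes the TGF-beta 2 ligand (ENSMUSG00000039239, GRCm38 chromosome 1, 186622792 to 186705989, minus strand). Control mice 1, 2 and 3 had 17.99, 14.5 and 15.7 FPKM, against 6.998, 3.30 and 6.58 FPKM in the I-PpoI mice in that order. Every I-PpoI library was lower than every control. Its log2 fold change was -1.41 (SE 0.35, limma adjusted p = 0.124), and after median-of-ratios scaling -0.69 (SE 0.25, limma adjusted p = 0.311). Scaled levels were 12.6, 11.2 and 12.4 against 8.15, 5.46 and 7.98 FPKM, so the groups stayed apart with factors from all genes. The value of I-PpoI mouse 2 rests on 16 fragments, with a 95% exact Poisson interval of 1.88 to 5.36 FPKM that covers counting error only.

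Eng encodes endoglin (ENSMUSG00000026814, chromosome 2, 32646595 to 32682669, plus strand), the co-receptor that captures BMP9 and BMP10. Control mice 1, 2 and 3 had 622, 688 and 608 FPKM, against 763, 252 and 347 FPKM in the I-PpoI mice in that order. I-PpoI mouse 1 was above every control and the other 2 I-PpoI mice below them. At the group level the log2 fold change was -0.65 (SE 0.48, limma adjusted p = 0.293) as deposited. It was 0.16 (SE 0.40) after median-of-ratios scaling, with the opposite sign.

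Acvrl1 encodes the type I receptor ALK1 (ENSMUSG00000000530, chromosome 15, 101128522 to 101145336, plus strand). Control mice 1, 2 and 3 had 116, 109 and 102 FPKM, against 61.5, 25.7 and 55.1 FPKM in the I-PpoI mice in that order. The control values were tight and every I-PpoI library lay below them. This held after scaling with factors from all genes (81.2, 84.4 and 80.5 against 71.6, 42.7 and 66.7 FPKM). The log2 fold change was -1.27 (SE 0.40, limma adjusted p = 0.124) and -0.47 scaled (SE 0.27, limma adjusted p = 0.356).

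Bmpr2 encodes the BMP type II receptor (ENSMUSG00000067336, chromosome 1, 59763400 to 59879014, plus strand). Control mice 1, 2 and 3 had 22.6, 16.0 and 22.6 FPKM, against 3.74, 2.26 and 11.8 FPKM in the I-PpoI mice in that order. The log2 fold change of -1.86 (SE 0.54, limma adjusted p = 0.124) was the furthest from 0 of the 10 members. After scaling it was -1.15 (SE 0.50, limma adjusted p = 0.311). I-PpoI mouse 3, at 14.3 FPKM scaled, then lay within the control range of 12.4 to 17.8, while I-PpoI mice 1 and 2 were at 4.36 and 3.74 FPKM. Bmpr2 also has the longest gene model of the members, 17983 exonic bases. Over 1063 tested protein-coding genes with at least 10000 exonic bases, the median scaled difference from control was -0.31, -0.49 and 0.05 on the log2 scale in I-PpoI mice 1, 2 and 3. Among the 2915 shortest genes, up to 2713 bases, it was -0.04, 0.16 and -0.12. For Bmpr2 itself the differences were -1.80, -2.02 and -0.08, and the part of gene length in them was not tested.

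Tgfbr2 encodes the TGF-beta type II receptor (ENSMUSG00000032440, chromosome 9, 116084293 to 116175360, minus strand). Levels in the 3 control mice were 56.5, 53.7 and 64.8 FPKM, against 26.0, 8.31 and 33.6 FPKM in the I-PpoI mice in that order. Its log2 fold change was -1.52 (SE 0.53, limma adjusted p = 0.125) and -0.74 scaled (SE 0.42, limma adjusted p = 0.351). Like Bmpr2, it was within the scaled control range (39.6 to 51.2) in I-PpoI mouse 3, at 40.7 FPKM, and below it in I-PpoI mice 1 and 2, at 30.3 and 13.8 FPKM.

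Smad6 (ENSMUSG00000036867, chromosome 9, 63953076 to 64022059, minus strand) encodes an inhibitory Smad that mainly restrains BMP receptors. Control mice 1, 2 and 3 had 103, 112 and 72.2 FPKM, against 197, 38.7 and 40.8 FPKM in the I-PpoI mice in that order. As with Eng, I-PpoI mouse 1 stood above every control and the other 2 below them. At the group level the log2 fold change was -0.46 (SE 0.67, limma adjusted p = 0.579) and 0.34 scaled (SE 0.61). Smad7 (ENSMUSG00000025880, chromosome 18, 75367529 to 75395935, plus strand) encodes the inhibitory Smad that acts on both TGF-beta and BMP receptors. Levels in the 3 control mice were 44.3, 43.0 and 30.5 FPKM, against 35.4, 15.0 and 14.7 FPKM in the I-PpoI mice in that order. I-PpoI mouse 1 lay inside the control range and the other 2 below it. The log2 fold change was -0.92 (SE 0.43, limma adjusted p = 0.142) and -0.14 scaled (SE 0.36).

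The Id genes encode helix-loop-helix proteins without a DNA-binding region, which bind and block basic helix-loop-helix transcription factors. Id1 (ENSMUSG00000042745, chromosome 2, 152736251 to 152737410, plus strand) was at 129.8, 313 and 130.4 FPKM in control mice 1, 2 and 3. The I-PpoI mice had 177, 53.5 and 70.4 FPKM in that order. Control mouse 2 was the highest library, and the groups overlapped. Its log2 fold change was -0.99 (SE 0.59, limma adjusted p = 0.212) and -0.18 scaled (SE 0.54). Id3 (ENSMUSG00000007872, chromosome 4, 136143497 to 136145755, plus strand) had control levels of 201, 353 and 166 FPKM, against 152, 54.6 and 76.5 FPKM in I-PpoI mice 1, 2 and 3. Every I-PpoI library was below every control, and the log2 fold change was -1.39 (SE 0.50, limma adjusted p = 0.126). Scaled levels of Id3 were 141, 273 and 131 against 177, 90.5 and 92.7 FPKM, so that the groups overlapped through I-PpoI mouse 1. Id2 (ENSMUSG00000020644, chromosome 12, 25093799 to 25097140, minus strand) had control levels of 57.2, 78.0 and 42.3 FPKM, against 27.6, 31.8 and 32.7 FPKM in I-PpoI mice 1, 2 and 3. These I-PpoI values were close together and below every control, at a log2 fold change of -0.88 (SE 0.33, limma adjusted p = 0.128). After scaling the difference was -0.09 (SE 0.33) and the groups overlapped.

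Upstream windows of 250 bases from RefSeq (GRCm38.p6) are shown for the target genes Id2, Id3 and Smad6, to show what the motif counts rest on. That table matched 7 of 10 members. Capitals mark GGCGCC, the GC-rich motif bound by BMP Smads, and CAGAC or its reverse complement GTCTG, the core Smad motif; both strands were searched and no marked matches overlap. The sequences run 5′ to 3′ along the gene and end at the base before the RefSeq start site, which lies 1048 bases inside the gene model used for the values for Id2 and 325 for Id3.
Id2 (chr12:25096093-25096342, minus strand): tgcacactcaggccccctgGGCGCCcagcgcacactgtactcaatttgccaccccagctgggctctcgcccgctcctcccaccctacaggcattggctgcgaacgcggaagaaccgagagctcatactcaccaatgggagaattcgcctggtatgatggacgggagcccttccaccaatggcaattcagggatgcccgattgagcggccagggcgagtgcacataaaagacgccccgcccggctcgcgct
Id3 (chr4:136143572-136143821, plus strand): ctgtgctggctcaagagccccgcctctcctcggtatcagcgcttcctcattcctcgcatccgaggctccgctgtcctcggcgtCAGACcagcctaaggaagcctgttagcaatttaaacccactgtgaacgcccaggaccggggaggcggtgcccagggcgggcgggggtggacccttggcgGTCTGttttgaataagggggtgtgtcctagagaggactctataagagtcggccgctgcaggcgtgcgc
Smad6 (chr9:64022060-64022309, minus strand): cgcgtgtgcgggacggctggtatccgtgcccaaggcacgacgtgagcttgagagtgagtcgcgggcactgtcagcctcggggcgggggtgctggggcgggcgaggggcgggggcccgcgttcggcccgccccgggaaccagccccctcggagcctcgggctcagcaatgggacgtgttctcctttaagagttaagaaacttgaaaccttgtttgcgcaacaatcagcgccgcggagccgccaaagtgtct
Id2 holds 1 GGCGCC, Id3 holds 2 of CAGAC or GTCTG, and Smad6 holds neither. Of the 7 matched windows, 4 hold CAGAC or GTCTG (Id3, Eng, Tgfb2 and Tgfbr2) and 2 hold GGCGCC (Id2 and Bmpr2), so the motifs are found in ligand and receptor genes too. Among all 32851 windows of this length in the table, 9.59% hold GGCGCC and 42.2% hold CAGAC or GTCTG.

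Control mouse 2 had the highest level of all 3 Id genes among the 6 libraries, and was the highest control for 37.1% of all genes tested. Its FPKM was 2.41 times the mean of the other 2 controls for Id1, 1.92 times for Id3 and 1.57 times for Id2. A ratio of at least 1.5 was seen for 16.3% of all genes tested. The receptors did not show this: the ratio was 1.12 for Eng, 1.00 for Acvrl1, 0.886 for Tgfbr2 and 0.708 for Bmpr2. It was 1.28 for Smad6 and 1.15 for Smad7. Within a library, the log2 level of Id1 minus that of Eng was -2.26, -1.14 and -2.22 in control mice 1, 2 and 3. It was -2.105, -2.23 and -2.30 for the I-PpoI mice, so that control mouse 2 was the highest by this measure. Against Acvrl1 the order was different: Id1 minus Acvrl1 was 0.16, 1.52 and 0.36 in the controls and 1.53, 1.06 and 0.36 for the I-PpoI mice. The median of the 3 Id genes minus the median of the 4 receptor genes was 0.68, 2.03 and 0.68 in the controls and 1.93, 1.87 and 0.71 for the I-PpoI mice. On these last measures I-PpoI mouse 1 was near control mouse 2. Such within-library differences do not depend on library scaling.

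**Figure D2:**
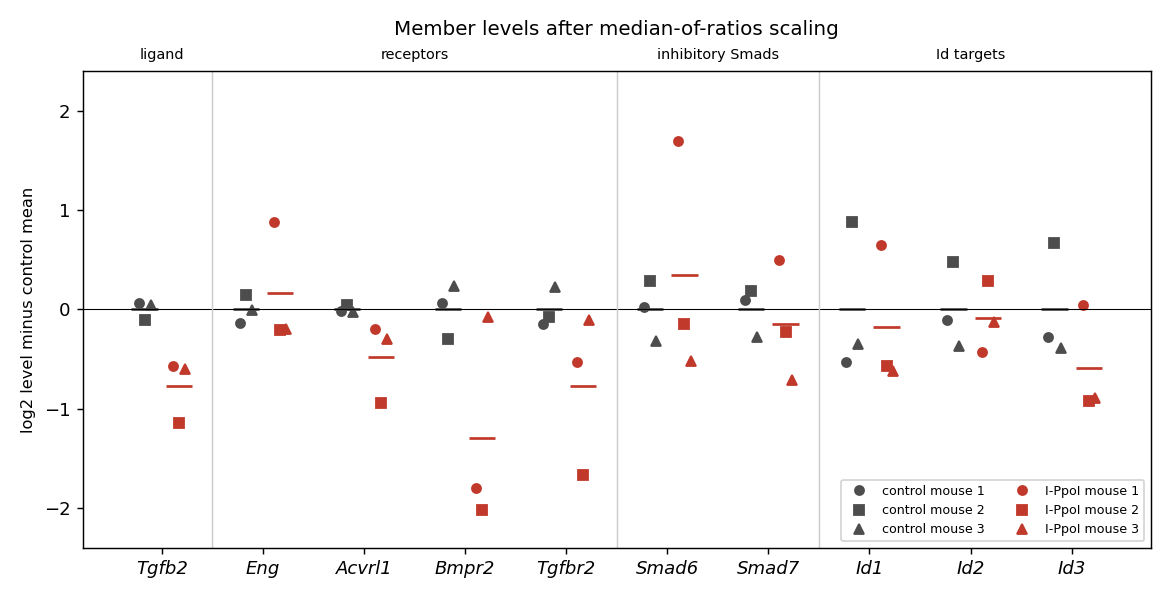
Log2 level of each member after median-of-ratios scaling, minus its control mean, in 3 control (grey) and 3 I-PpoI (red) libraries, with bars at group means. Scaling factors came from all genes. Only Tgfb2 and Acvrl1 had all I-PpoI points under all control points, while I-PpoI mouse 1 stood high for Eng and Smad6 and control mouse 2 for Id1, Id2 and Id3.

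The 3 I-PpoI libraries did not share one pattern after scaling. In I-PpoI mouse 1, 5 members lay below every control and 3 above (Eng at a difference of 0.88, Smad6 at 1.696 and Smad7 at 0.50 on the log2 scale). In I-PpoI mouse 2, 7 members lay below every control and 0 above; 42.8% of all genes tested lay below there. In I-PpoI mouse 1, 40% of all genes lay below every control and 41.5% above. I-PpoI mouse 3 had few minus-strand mitochondrial fragments and 13324303 fragments in all, below every control. Of these, 2333462 lay on protein-coding genes whose other strand is free of nearby genes, against 4057312 to 5017750 in controls. In it, 7 members lay below every control, against 27.5% of all genes tested, and 3 did not: Bmpr2, Tgfbr2 and Id2. The differences from the control mean were -0.89 for Id3, -0.71 for Smad7, -0.62 for Id1, -0.60 for Tgfb2 and -0.52 for Smad6. They were -0.30 for Acvrl1 and -0.20 for Eng. This is 1 library with no replicate, and its endothelial marker sum was 1408 FPKM, with the proximal tubule sum at 1157 FPKM.

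Leaving out I-PpoI mouse 3, limma called 4 members lower, Bmpr2, Tgfb2, Tgfbr2 and Acvrl1, beside 36.8% of all genes called lower (56.6% called in either direction). Array weights called the same 4 (27% of genes called lower, 45.6% in either direction), and rescaling to a common FPKM total called these 4 and Id3 (31.8% called lower, 37.4% in either direction). Scaling by median of ratios without I-PpoI mouse 3 called Bmpr2 and Tgfb2 lower, beside 14.3% of genes called lower and 38% in either direction. Without I-PpoI mice 1 and 2, all 10 members were below every control as deposited and 7 were after scaling, beside 70.7% and 27.5% of all genes tested. The median log2 fold change as deposited was -1.07 over the members and -0.54 over all genes tested. After scaling these medians were -0.40 and -0.03. In such a fit the sole I-PpoI library left is assumed to vary like the controls.

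The strand shares of I-PpoI mice 1 and 2 bear on every member value in them, and whether these libraries were counted with another strand setting was not tested. Fragments on such strand-clear protein-coding genes came to 241106 and 79921 there, so members without such a neighbour rest on few fragments too. Of the 10 members, 6 had no gene on the other strand within 5 kb of an exon (Bmpr2, Tgfbr2, Smad6, Id1, Id2 and Id3). The antisense gene Gm16031 (chromosome 15, 101129916 to 101131592) overlaps an Acvrl1 exon. I-PpoI mice 1 and 2 had 163 and 74.6 FPKM of it, from 117 and 28 fragments, and the other 4 libraries 0 to 2 fragments. Gm29491 (chromosome 1, 186705695 to 186707033), across from Tgfb2, was at 54.2 and 40.1 FPKM in those libraries and at 0.933 to 1.40 FPKM elsewhere. Fpgs, the folylpolyglutamate synthase gene whose 3′ end overlaps that of Eng, was at 111 and 46.8 FPKM there and at 4.42 to 6.82 FPKM elsewhere. In I-PpoI mice 1 and 2 both antisense genes thus stood above the members they face in FPKM, which is divided by gene length. In fragments, Gm16031 had 117 and 28 against 421 and 92 for Acvrl1. Gm29491 had 44 and 17 against 65 and 16 for Tgfb2. How many fragments of Acvrl1, Tgfb2 and Eng were counted on the other strand in these 2 libraries was not tested. Member values rest on 65 to 4954 fragments for I-PpoI mouse 1, on 16 to 854 for I-PpoI mouse 2, and on 508 to 41728 for the other 4.

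**Figure D3:**
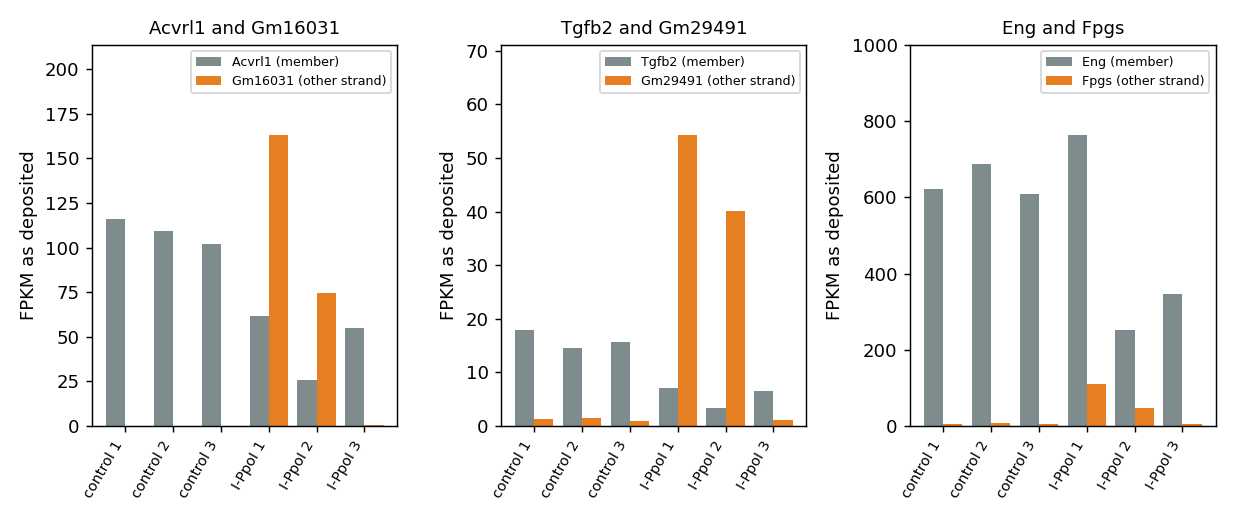
FPKM as deposited in each library for 3 members (grey bars) and the gene on the opposite strand that overlaps each (orange bars), 1 bar per library and gene. Gm16031 and Gm29491 exceed Acvrl1 and Tgfb2 in I-PpoI mice 1 and 2 and are near 0 in the other 4 libraries.

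Member levels were also set against the median of the 18 endothelial markers in the same library, which contain no member. On this scale Eng was 1.94, 1.81 and 2.03 log2 units above the marker median in control mice 1, 2 and 3. It was 3.39, 3.03 and 2.31 above it in I-PpoI mice 1, 2 and 3. Acvrl1 was at -0.48, -0.83 and -0.54 against -0.22, -0.21 and -0.32. In both genes every I-PpoI library was higher than every control, with differences of 0.99 and 0.37 (exact two-sided permutation p = 0.10 each, the smallest that 3 against 3 allows). Of all genes tested, 60.1% were higher in every I-PpoI library on this scale, and 0.0869% were lower. The 2 of 10 members are a smaller share than this background. The marker median itself fell, from a mean of 7.40 in controls to 5.755 in I-PpoI on the log2(FPKM + 1) scale. Genes that fell less than the markers rise on this scale, so being higher on it does not mean a raised level. The other 8 members overlapped between groups, with exact permutation p of 0.20 to 0.70 and differences of -0.22 for Bmpr2 to 1.18 for Smad6. With only the 10 markers clear of opposite-strand genes, 0 members stood apart, and the differences were 0.97 for Eng and 0.35 for Acvrl1.

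**Figure D4:**
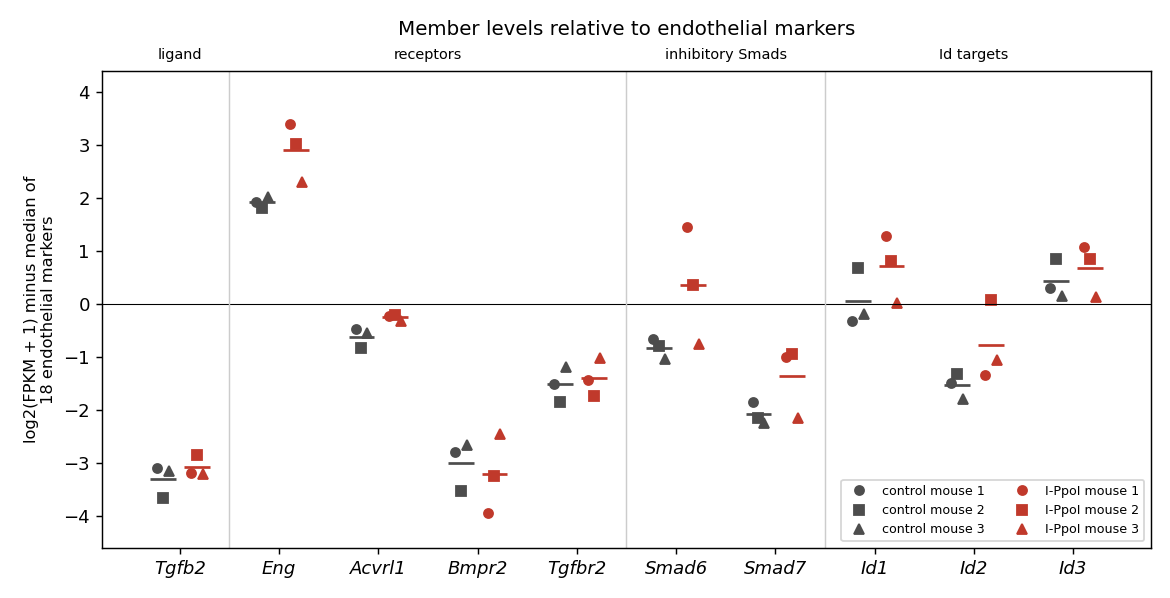
Log2(FPKM + 1) of each member minus the median of 18 endothelial markers in the same library, for 3 control (grey) and 3 I-PpoI (red) libraries, with bars at group means. The I-PpoI points of Eng and Acvrl1 lie above all control points, and those of the other 8 members overlap them.

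Of 57 other genes of the pathway, 45 passed the filter and 0 passed the threshold, with 22 lower at unadjusted p under 0.05, beside 32.5% of all genes. After scaling 4 were (3.67% of all genes), and by limma-voom 3 (1.22%). As deposited, 43 of 45 had log2 fold changes below 0 with a median of -1.05, beside -0.65 over all genes. After scaling 30 were below 0, with a median of -0.31. The groups did not overlap for 23, all lower, as deposited, beside the background of 45.1%. After scaling 13 were lower in every I-PpoI library and 1, Id4, was higher, beside backgrounds of 10.7% and 7.24%.

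Of the 6 ligand genes tested, 6 had log2 fold changes below 0 (median -0.99). Bmp6, an endothelial BMP that acts on hepcidin control in liver, was at 50.9, 51.0 and 55.6 against 52.0, 10.7 and 27.4 FPKM. Tgfb1 was at 33.8, 46.8 and 31.4 against 33.5, 11.4 and 16.7 FPKM, so that it too overlapped only through I-PpoI mouse 1. Bmp2 was at 21.1, 13.9 and 18.1 against 10.9, 1.007 and 4.37 FPKM and Bmp4 at 17.3, 12.6 and 12.9 against 9.43, 3.72 and 6.44 FPKM, both below every control. The ALK1 ligand genes, named after their values were seen, were at or near 0: Bmp10 was listed at 0 in every library, and Gdf2, which encodes BMP9, at 0.0207 FPKM in control mouse 1 and 0 in the other 5.

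Of the 7 other receptor genes tested, 5 were below 0 (median -1.10). Tgfbr1, the TGF-beta type I receptor, had control levels of 6.15, 5.72 and 8.50 FPKM, against 0.477, 0.365 and 7.48 FPKM in I-PpoI mice 1, 2 and 3. I-PpoI mouse 3 lay within the control range as deposited and the other 2 below it. After scaling, I-PpoI mouse 3 was above every control, at 9.06 FPKM against 4.31 to 6.71 FPKM for Tgfbr1. The log2 fold change of Tgfbr1 was -1.58 (SE 0.74) as deposited and 0.15 (SE 0.75) by limma-voom, with the opposite sign. Its values under 1 FPKM came from the 2 shallowest libraries, with 1590957 and 834149 fragments. Low values of other pathway genes in these libraries carry the same limit. Tgfbr3, the betaglycan co-receptor, was at 20.2, 12.1 and 17.7 against 6.57, 4.56 and 10.3 FPKM. Bmpr1a, a BMP type I receptor, was at 10.8, 4.84 and 6.55 against 1.87, 1.88 and 5.45 FPKM. Acvr1b, an activin type I receptor, was at 12.4, 10.5 and 10.5 against 18.2, 12.4 and 6.34 FPKM, with a log2 fold change of 0.03 (SE 0.41).

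All 6 signalling Smads were lower in every I-PpoI library than in every control as deposited (median -1.22). Over all genes tested this share was 45.1%, with a median of -0.65. Smad1, Smad4 and Smad5 stayed so after scaling, as did 10.7% of all genes. By limma-voom, Smad9 was above 0 (0.15) and the other signalling Smads below it, with Smad3 at -0.008. Smad4, the shared partner of all receptor-activated Smads, was at 24.0, 20.6 and 22.4 against 7.56, 5.14 and 11.2 FPKM (log2 fold change -1.44, SE 0.34, limma adjusted p = 0.124). Scaled, it was at -0.69 (SE 0.26, limma adjusted p = 0.311). Smad5, which carries BMP signals, was at 12.95, 14.5 and 11.9 against 2.52, 0.804 and 6.91 FPKM, with a scaled log2 fold change of -1.30 (SE 0.53, limma adjusted p = 0.311). Smad1, its close relative, was at 8.46, 9.35 and 7.60 against 2.49, 1.52 and 4.79 FPKM. Smad3, which carries TGF-beta signals, was at 10.3, 7.77 and 8.88 against 4.5002, 2.37 and 6.20 FPKM. Smad1, Smad3 and Smad4 have a gene on the other strand within 5 kb of an exon and Smad5 does not.

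The 16 modulators tested were all below 0 (median -1.25). Ltbp4, a latent TGF-beta binding protein, was at 366, 192 and 287 against 219, 82.7 and 97.1 FPKM, with overlap through control mouse 2. Fkbp1a, which holds type I receptors inactive, was at 106, 179 and 111 against 40.4, 17.3 and 60.8 FPKM. Fstl1, a secreted glycoprotein, was at 59.0, 48.5 and 51.0 against 19.4, 13.1 and 26.7 FPKM. Both of these were below every control. The 10 other target genes were below 0 as deposited (median -0.52), and 6 of them were above 0 after scaling (median 0.20). Ccn2, a matricellular TGF-beta target, was at 191, 123 and 139 against 142, 64.2 and 79.0 FPKM. Thbs1, which can activate latent TGF-beta, was at 26.5, 25.5 and 40.6 against 15.6, 23.8 and 39.3 FPKM. Hes1, which BMP and Notch signals can induce, was at 36.6, 75.7 and 31.0 FPKM in the controls, highest in control mouse 2 like the Id genes, and at 39.5, 17.6 and 15.1 FPKM in I-PpoI.

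**Figure D5:**
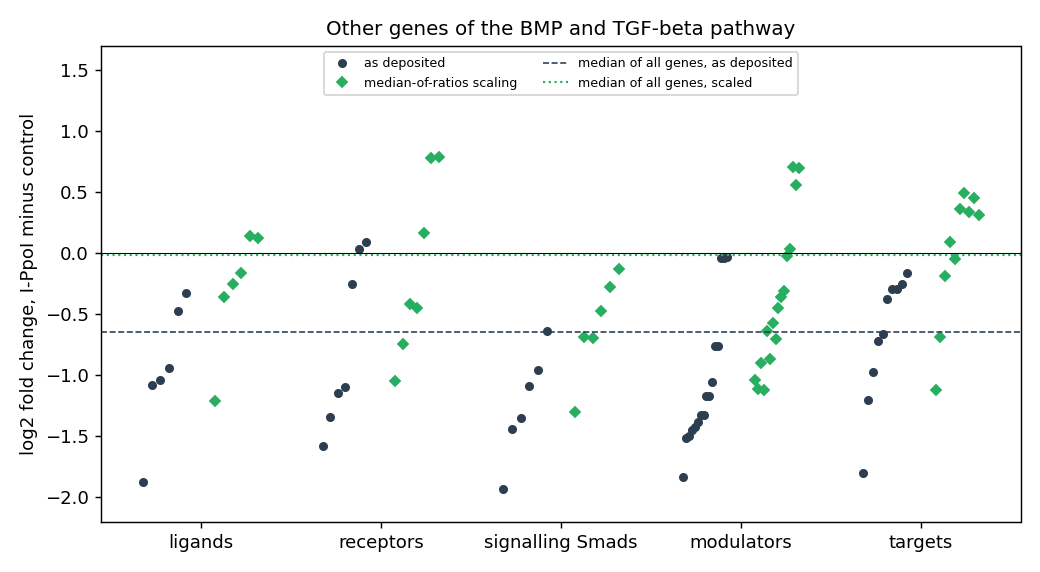
Log2 fold change (I-PpoI minus control, log2(FPKM + 1) scale) of the 45 other pathway genes tested, by role, as deposited (circles) and after median-of-ratios scaling (diamonds), with lines at the median of all genes. Signalling Smads lie below 0 on both scales, as do 71.6% of all genes tested as deposited and 50.7% after scaling. After scaling, 6 of 10 targets lie above 0.

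Profiles over the 6 libraries were compared by the distance between log2(FPKM + 1) values centred on each gene's mean, among 11353 protein-coding genes. The 3 nearest to Eng were Fes (distance 0.15), Banp (0.17) and Acap1 (0.22). Fes was at 19.6, 19.2 and 17.4 against 21.3, 6.82 and 9.69 FPKM, the same order of libraries in the I-PpoI group. It was picked by this distance over the same libraries, so the shared order is no separate result. The nearest to Id1 were Ddah2 (0.40), Il3ra (0.41) and Egfl7 (0.42). Ddah2 was at 94.0, 177 and 85.3 against 89.2, 31.5 and 42.2 FPKM. Id3 ranked 27 in likeness to Id1, Eng 290, and Bmpr2 9773. For Eng, the nearest member was Smad7, at rank 362.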

How the data were processed

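RNA of CD31-sorted kidney endothelial cells was sequenced from 6 mice, and the deposited file gives FPKM (fragment counts corrected for gene length and library size), normalized by the authors per the file headers, for 55487 genes. Per the submitters' processing notes, DESeq2 1.28.13, mm10 and GRCm38 were used; which aligner, counter or strand setting was used is not given in the sources used here. FPKM times GENCODE M21 exon length gave fragment counts within 0.05 of whole for 98.5 to 98.6% of values under 1000 fragments.

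Limma 3.58.1 (R 4.3.3, with an intensity trend) was fitted to log2(FPKM + 1) of 14962 genes averaging 1 FPKM or more. P-values were adjusted by Benjamini-Hochberg over all of them, at a threshold of 0.05. The intensity trend was adopted after fits with and without it had been seen, because it gave the counts of an earlier analysis of these data, and the smallest adjusted p was 0.124 with it and 0.132 without. FPKM are not counts, so limma-voom on recovered fragments served only as an alternative. Other alternatives covered pseudocounts, filters, scaling, weights, the replicate block, strand-clear genes (nuclear protein-coding, with the other strand free of genes to 5 kb around each exon) and left-out libraries. Median-of-ratios scaling divides each library by its median ratio to the gene-wise geometric mean. The fits were run on data simulated from the control profile with known changes, at deposited and at equal library totals. These data held no strand or cell-content shift, so they cannot show how the fits behave under such shifts. Scripts ran in Python 3.11.15 with matplotlib 3.10.9, scipy 1.17.1, pandas 2.3.3 and numpy 2.4.6.

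The 10 members, the 57 pathway genes, the 8 marker lists and the tests were chosen with earlier results of these data known. Named genes are the members, the 3 pathway genes of each role with the highest control FPKM, 8 core pathway genes fixed with them, any past the threshold, and the 3 genes nearest in profile to Eng and to Id1. The labels describe separate mice; nothing else says what the replicates share.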

Additional observations from a re-analysis of the deposited data

How the results depend on the processing

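The fits that joined median-of-ratios scaling with left-out libraries, and the fit without an intensity trend, were added once the data had been seen. The count of 0 genes became 5591 with all libraries at one FPKM total, 6829 by array weights, 22 without I-PpoI mice 1 and 2, 47 scaled without them, 0 to 8474 with 1 library left out and 0 to 5690 scaled with 1 I-PpoI library left out. Members past the threshold became 5 at one FPKM total, 4 by array weights, 0 to 4 with 1 library left out and 0 to 2 scaled with 1 I-PpoI library left out (Bmpr2 and Tgfb2, without I-PpoI mouse 3). Pathway genes became 23, 20, 0 to 21 and 0 to 15 in the same order. Every such count with 1 library left out came from leaving out I-PpoI mouse 3. The counts of 0 genes, 0 members and 0 pathway genes held with no filter, a filter of 5 FPKM, pseudocounts of 0.1 and 0.5, strand-clear genes, limma-voom, no intensity trend and the replicate block. The replicate block left 0 genes and 0 members, with 4 members lower at unadjusted p under 0.05, as were 25.8% of genes. Same-numbered libraries correlated at 0.09, 0.06 and -0.02. Control mice 1 and 2 correlated best with the I-PpoI mouse of the same number, and control mouse 3 with I-PpoI mouse 2.

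Members lower in every I-PpoI library went from 6 (45.1% of all genes) to 2 by median-of-ratios scaling (10.7%), 9 at one FPKM total (64.8%) and 10 without I-PpoI mice 1 and 2 (70.7%). They were 6 to 10 with 1 library left out (46.6 to 55.6%; 10 without I-PpoI mouse 1), 2 to 5 scaled with 1 I-PpoI library left out (12.5 to 29.8%) and 7 scaled without I-PpoI mice 1 and 2 (27.5%). Relative to endothelial genes the 2, both higher, became 0 with strand-clear markers (51.9% of all genes higher) and 6 without I-PpoI mice 1 and 2, of which 5 were higher (88.5%) and 1 lower (0.722%). With 1 library left out 2 to 5 were higher (61.6 to 81.3%), 4 without control mouse 1 or 2 and 5 without I-PpoI mouse 3. The sign of the log2 fold change turned for Eng (0.16 by median-of-ratios scaling, 0.18 by limma-voom, 0.34 both scaled without I-PpoI mouse 2 and scaled without I-PpoI mouse 3). It turned for Smad6 (0.34 scaled, 0.012 with array weights, 0.31 by limma-voom, 0.68 over strand-clear genes, 0.59 and 0.77 scaled without I-PpoI mouse 2 or 3). It also turned for Smad7 (0.13 scaled without I-PpoI mouse 3), Id1 (0.16 over strand-clear genes, 0.015 and 0.042 scaled without I-PpoI mouse 2 or 3) and Id2 (0.25 over strand-clear genes, 0.077 scaled without I-PpoI mouse 1). The cause was not tested. Tgfb2, Acvrl1, Bmpr2, Tgfbr2 and Id3 stayed below 0 in every alternative fit run for them, but Tgfb2 and Acvrl1 were not in the strand-clear fit. Relative to the 18 endothelial markers, the differences were 0.23 for Tgfb2, 0.37 for Acvrl1, 0.12 for Tgfbr2, 0.25 for Id3 and -0.22 for Bmpr2. The depth of I-PpoI mouse 2 limits Tgfb2 and Bmpr2, at 16 and 34 fragments.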
